A study of Mus musculus with 22 samples.

Results

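The choroid plexus (ChP) genes described here are 10 genes chosen by symbol: *Ttr*, *Otx2*, *Kcne2*, *Clic6*, *Folr1*, *Aqp1*, *Kl*, *Sostdc1*, *Enpp2* and *Car12*. All 10 were found among the 24421 genes of a table of RNA-seq counts from mouse forebrain at E13.5, and 8 had enough counts to be tested. *Kcne2* and *Kl* did not. The RNA came from 3 *Prdm16* KO embryos and 3 control embryos, with 1 library each. KO embryos were homozygous for a mutant *Prdm16* allele. The study's methods describe 2 null gene-trap alleles, cGT and cGTreinv, kept by outcrossing to FVB/NJ, and do not say which of them the sequenced embryos carried. In a gene-trap null the gene is lost in every tissue of the embryo, the ChP and the meninges included. Controls were wild-type embryos in the methods, and in the labels littermates of either heterozygous or wild-type genotype. The tissue is forebrain in the labels and cortex in the methods. Libraries are named by animal number. The KO ones are F727, F728 and F731, the control ones F722, F724 and F725, and 3 values of a group are always given in this order.

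The ChP is the sheet of epithelium, folded over a vascular stroma, that secretes cerebrospinal fluid into the brain ventricles. In the telencephalon it forms at the dorsal midline, next to the cortical hem, a source of WNT and BMP signals. Its epithelial cells turn on *Otx2* and the multiciliation programme early and then express carriers, channels and transporters that move water, ions, hormones and vitamins between blood and fluid. PRDM16 is a zinc finger transcriptional regulator of neural progenitors. The study also reports PRDM16 in the ChP at E13.5, and a strongly reduced prospective ChP in KO brains. How much ChP the dissected tissue of each library held is not given. The comparison of KO with control asks whether RNA of these genes differed in the forebrain when PRDM16 was lost.

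The libraries held 16638433 to 43066648 counts, and 15027 genes passed the filter on low counts. The ribosomal RNA precursor *Rn45s* made up 2.43%, 0.522% and 7.39% of counts in KO and 0.615%, 0.231% and 0.224% in control. Levels are given as CPM, counts brought to a common library size after scaling by the trimmed mean of M-values (TMM), and differences as log2 fold changes of KO over control with their standard error (SE). *Prdm16* itself had 349, 279 and 99 counts in KO and 2003, 2015 and 1114 in control (log2 fold change -2.61, SE 0.22), so the genotype labels fit the libraries. The edgeR test gave it an adjusted *P*=0.0536, and DESeq2 an adjusted *P*=7.09e-24. KO F731 stood apart. It was the shallowest library, yet it had counts for 3483 of the 4573 genes that were at 0 in all of the other 5 libraries (76.2%). The same measure in each of the others gave 1.80% to 3.96%. Its base there was smaller, 1110 to 1135 genes, because those genes also had to be at 0 in KO F731. Marker genes of cortical cells summed to 4418 to 4648 CPM in KO and 4720 to 5114 CPM in control, so cortical genes were present throughout. The 3 KO sums were below the 3 control sums, but for every single gene of the list the groups overlapped. *Tubb3* alone gave 1849 to 2115 CPM of the KO sums and 1985 to 2054 CPM of the control sums. All values below are from whole tissue, in which fewer cells of a type and less RNA per cell cannot be told apart.

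None of the 10 ChP genes separated KO from control forebrain. For each of them the range of the 3 KO libraries overlapped that of the 3 controls, where 3.86% of all tested genes lay wholly higher in KO and 3.55% wholly lower. None of the 8 tested genes passed an adjusted *P*-value of 0.05 in edgeR, and neither did any gene of the table (0%). In DESeq2 none of the 9 with an adjusted *P*-value passed either, against 0.102% of all genes higher and 0.0128% lower in KO. At an unadjusted *P*-value under 0.05 edgeR called 0 of the 8, against 1.92% of all genes, and DESeq2 called 1 of 10, *Ttr* (adjusted *P*=0.960), against 3.41% of all genes. The log2 fold change was above 0 for 6 of the 8, against 49.2% of all genes, with a median of 0.26 against -0.0037 for all genes. Without KO F731 it was above 0 for 7 of 8 (median 0.19) and without KO F727 for 8 of the 9 then tested (median 0.42). Without control F724 it was above 0 for 9 of 9 (median 0.43), and without control F725 for 6 of 8 (median 0.24). Without KO F728 and without control F722 it was above 0 for 7 of 9 each (medians 0.33 and 0.30). In these fits 49.2% to 50.2% of all genes were above 0. DESeq2, which also fitted *Kcne2* and *Kl*, put 8 of 10 above 0 with a median of 0.58, where 64.1% of all genes were above 0 with a median of 0.15.

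**Figure D1:**
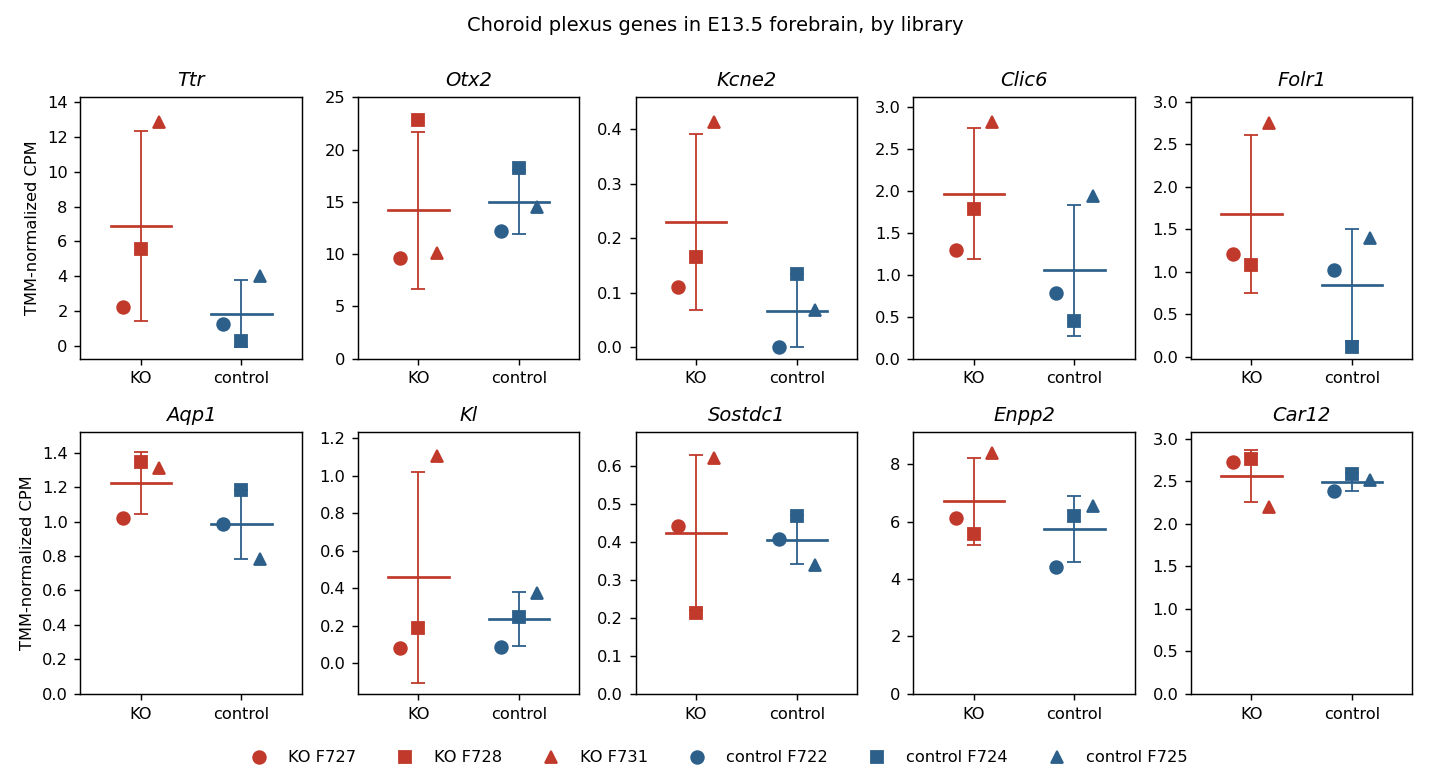
TMM-normalized CPM (vertical axis, linear, a scale for each gene) of the 10 choroid plexus genes in 3 KO libraries (red, left) and 3 control libraries (blue, right) of E13.5 forebrain. Each point is 1 library, lines are means and bars are SD. In every panel the points of the groups overlap, KO F731 is the highest of the 6 for 7 genes, and control F724 is the lowest for *Ttr*, *Clic6* and *Folr1*.

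The genes were expressed at low levels. Per kilobase of exon, the mean over the 6 libraries was highest for *Ttr* at 3.68 CPM per kb and *Otx2* at 3.46, followed by *Enpp2* at 1.07. *Folr1* (0.549), *Aqp1* (0.420), *Clic6* (0.386), *Car12* (0.333) and *Sostdc1* (0.233) followed, and *Kcne2* (0.084) and *Kl* (0.037) were lowest. *Ttr* and *Otx2* differed by less than the spread of *Ttr* over the libraries, which ran from 0.226 to 10.9 CPM per kb.

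*Ttr* encodes transthyretin, the thyroid hormone and retinol carrier that the ChP secretes and the most used marker of its epithelium. It lies on chromosome 18 (20665280 to 20674321, GRCm38). It had 80, 236 and 187 counts in KO and 43, 12 and 118 in control. Scaled, this was 2.20, 5.56 and 12.9 CPM in KO and 1.25, 0.268 and 4.01 CPM in control. Control F725 was above KO F727, and the other controls were below all KO libraries. The means were 6.88 ± 5.46 and 1.84 ± 1.94 CPM (SD, n = 3 each), a 3.74-fold ratio of KO over control. The highest library was 5.85-fold above the lowest within KO and 15.0-fold within control, both larger than the ratio of the means. The log2 fold change was 1.90 (SE 0.91), with an unadjusted *P*-value above 0.05 and an adjusted *P*=0.863 in edgeR.

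The size of the *Ttr* difference depended on single libraries. It was 1.14 without KO F731, which held the highest level, and 1.35 without control F724, which held the lowest. Without control F725 it was 3.17, and the other values with 1 library left out were between these in edgeR. *Ttr* was above 0 in all 20 fits. The unadjusted *P*-value was under 0.05 in 7 of the 20 fits and the adjusted one in 0. The lowest adjusted *P*-value was 0.145, in DESeq2 without control F725.

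*Folr1* encodes the folate receptor alpha, through which the ChP passes folate into cerebrospinal fluid. It lies on chromosome 7 (101858331 to 101870788). It had 44, 46 and 40 counts in KO and 35, 5 and 41 in control. Scaled, it was at 1.21, 1.08 and 2.75 CPM in KO and 1.02, 0.112 and 1.39 CPM in control. Control F724 held almost none of it, and the other controls lay within or just under the KO range. The log2 fold change was 0.98 (SE 0.78, adjusted *P*=0.863 in edgeR). It was 0.43 without control F724 and 0.52 without KO F731. *Folr1* overlaps *Anapc15* on the opposite strand, and the strand setting of the counting is not given, so reads of the pair cannot be told apart.

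*Clic6*, a member of the chloride intracellular channel family that is enriched in ChP epithelium, lies on chromosome 16 (92485736 to 92541243). It had 47, 76 and 41 counts in KO and 27, 20 and 57 in control. Scaled, it was at 1.29, 1.79 and 2.82 CPM in KO and 0.784, 0.446 and 1.94 CPM in control. As for *Ttr*, control F725 lay inside the KO range and the other controls lay below it. The log2 fold change was 0.89 (SE 0.56, adjusted *P*=0.863 in edgeR). It was 0.51 without control F724, 0.60 without KO F731 and 1.65 without control F725 (adjusted *P*=0.992 in edgeR, with the unadjusted value under 0.05). The non-coding gene *2410124H12Rik* overlaps *Clic6* on the same strand and has a row of its own, so the split of reads between them is uncertain.

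*Kcne2*, the beta subunit of a potassium channel at the apical face of the ChP, is on the same chromosome (92292389 to 92298129). It had 4, 7 and 6 counts in KO and 0, 6 and 2 in control. It was at 0.110, 0.165 and 0.413 CPM in KO and 0, 0.134 and 0.0679 CPM in control. The 0 of control F722 allows a level of up to 0.0871 CPM (3 counts), which is below the KO values of this gene but above control F725. In KO F731, 859 of the 4573 genes that no other library detected (18.8%) reached the 6 counts of *Kcne2*. At this depth a difference in *Kcne2* was not detectable (DESeq2 log2 fold change 1.67, SE 1.53).

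*Kl* encodes klotho, a co-receptor for FGF23 that ChP and kidney express. It lies on chromosome 5 (150952607 to 150993817). It had 3, 8 and 16 counts in KO and 3, 11 and 11 in control. The scaled values were 0.0825, 0.189 and 1.10 CPM in KO and 0.0871, 0.245 and 0.374 CPM in control. KO F731 alone was above the controls, and the other KO libraries were inside or below the control range. In DESeq2 the log2 fold change was 0.86 (SE 1.19), and -0.78 without KO F731. In that library 72 of the 4573 genes detected nowhere else (1.57%) had at least as many counts as *Kl*.

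*Otx2* encodes the homeodomain factor needed for ChP development and maintenance, and is also expressed in diencephalon and midbrain. It lies on chromosome 14 (48657677 to 48673819). It had 351, 969 and 146 counts in KO and 420, 819 and 427 in control. The levels were 9.66, 22.8 and 10.1 CPM in KO and 12.2, 18.3 and 14.5 CPM in control. KO F728 was the highest of the 6, and the other KO libraries were the lowest. The means were 14.2 ± 7.50 and 15.0 ± 3.07 CPM (SD, n = 3 each), and the log2 fold change was -0.07 (SE 0.34, adjusted *P*=0.958 in edgeR). Without KO F728 it was -0.61 (adjusted *P*=0.718 in edgeR, with the unadjusted value under 0.05), and without any other library it was between -0.20 and 0.16. Control F724, the lowest library for *Ttr*, *Folr1* and *Clic6*, was the second highest for *Otx2*. *Otx2* overlaps the antisense gene *Otx2os1*, so its counts carry the same uncertainty of strand as those of *Folr1*.

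*Enpp2* encodes autotaxin, the secreted enzyme that makes lysophosphatidic acid, and lies on chromosome 15 (54838901 to 54952892). It had 223, 236 and 122 counts in KO and 152, 278 and 193 in control, which is 6.13, 5.56 and 8.40 CPM in KO and 4.41, 6.20 and 6.56 CPM in control. KO F731 was highest and the others were mixed, with a log2 fold change of 0.21 (SE 0.22, adjusted *P*=0.863 in edgeR).

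*Aqp1*, the water channel of the apical ChP membrane, is on chromosome 6 (55336432 to 55348555). It had 37, 57 and 19 counts in KO and 34, 53 and 23 in control. The levels were 1.02, 1.34 and 1.31 CPM in KO and 0.987, 1.18 and 0.781 CPM in control. The ranges overlapped only through control F724, which was above KO F727 (log2 fold change 0.30, SE 0.31, adjusted *P*=0.863 in edgeR).

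*Car12*, a membrane-bound carbonic anhydrase, is on chromosome 9 (66713686 to 66766845). It had 99, 117 and 32 counts in KO and 82, 116 and 74 in control. Its levels of 2.72, 2.76 and 2.20 CPM in KO and 2.38, 2.59 and 2.51 CPM in control were the closest of the 10 genes. The log2 fold change was 0.05 (SE 0.20, adjusted *P*=0.948 in edgeR).

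*Sostdc1*, a secreted antagonist of BMP and WNT signals, is on chromosome 12 (36314139 to 36318452). It had 16, 9 and 9 counts in KO and 14, 21 and 10 in control, or 0.440, 0.212 and 0.620 CPM in KO and 0.406, 0.469 and 0.340 CPM in control. All 3 controls lay inside the KO range (log2 fold change -0.04, SE 0.49, adjusted *P*=0.984 in edgeR). In KO F731, 352 of the 4573 genes detected nowhere else (7.70%) reached its 9 counts.

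**Figure D2:**
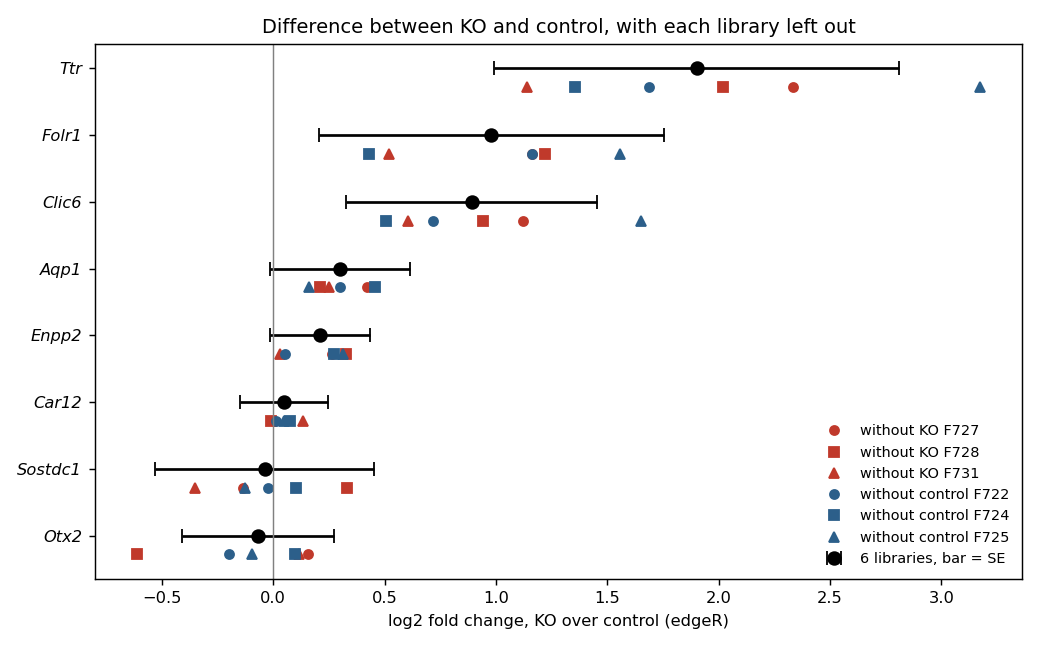
log2 fold change of KO over control in edgeR (horizontal axis) for the 8 choroid plexus genes tested. Black points with bars are the estimate from 6 libraries with its SE, and coloured points leave out 1 library each (red for KO, blue for control). *Ttr* ran from 1.14 without KO F731 to 3.17 without control F725, *Folr1* and *Clic6* were lowest without control F724, and *Otx2*, *Sostdc1* and *Car12* lay on both sides of 0.

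*Ttr*, *Clic6* and *Folr1* shared an order of the controls, with F725 highest, then F722, then F724. This order held for 9.58% of all tested genes. Control F724 had less than 0.5 times the median of the other 5 libraries for these 3 of the 8 ChP genes, against 1.30% of all genes. Control F722 was that low for *Ttr* and *Clic6*, 2 of the 8, against 2.03% of all genes. Control F724 was not that low for *Otx2*, *Aqp1*, *Sostdc1*, *Enpp2* and *Car12*, so the genes did not move as 1 block across libraries. KO F731 was the highest of the 6 libraries for 5 of the 8 tested genes, and for *Kcne2* and *Kl*, but it was also the highest for 38.4% of all genes.

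Genes of the dorsal midline, from which the ChP grows, were low in the same control library. Control F724 was the lowest of the 6 for 11 of 15 tested midline genes, against 17.2% of all genes. It had less than 0.5 times the median of the others for 10 of the 15. For 1 midline gene, *Zic1*, it was the highest library, at 136 CPM against 54.7 to 117 CPM in the others. *Lmx1a*, a LIM homeodomain factor of the roof plate and cortical hem, had 216, 162 and 115 counts in KO and 160, 12 and 165 in control. *Wnt3a*, the WNT ligand that marks the cortical hem, had 202, 202 and 92 counts in KO and 165, 8 and 135 in control. In both genes control F724 held a small part of what every other library held, and the remaining controls lay among the KO libraries or, on the CPM scale, just under them. *Lmx1a*, *Wnt3a* and the multiciliation genes *Mcidas* and *Gmnc* were chosen after their values had been seen.

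Genes of multiciliated cells were also low in this library, to unlike degrees. ChP epithelial cells are multiciliated, and GMNC, MCIDAS and CCNO act in turn to amplify their centrioles. Control F724 was the lowest of the 6 libraries for 8 of 8 tested genes of this list. *Gmnc* had 269, 191 and 54 counts in KO and 107, 14 and 159 in control. *Mcidas* had 64, 77 and 34 in KO and 61, 6 and 45 in control, and *Ccno* had 154, 155 and 98 in KO and 107, 6 and 115 in control. For each of them control F724 had the fewest counts although it was the deepest library.

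**Figure D3:**
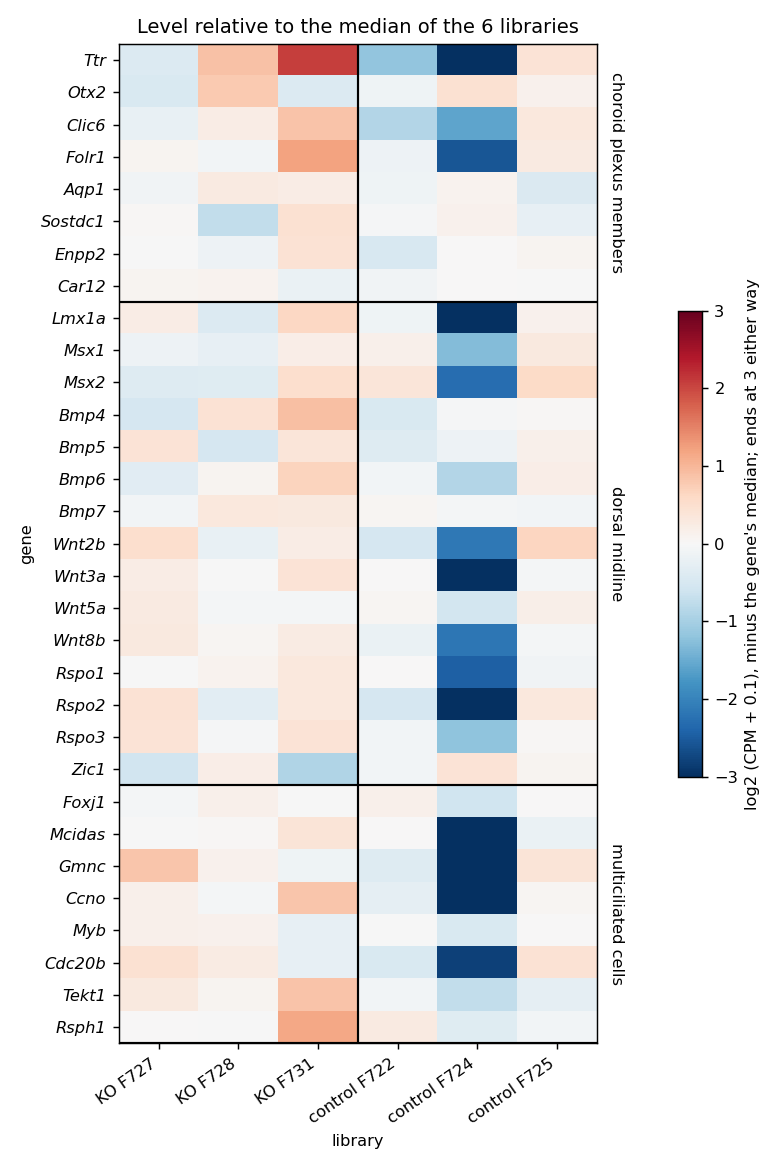
Level of each gene in each library as log2 of CPM plus 0.1, minus the median of that gene over the 6 libraries (colour, red above and blue below, ending at 3 either way), for the tested choroid plexus, dorsal midline and multiciliated cell genes (rows). The 3 KO libraries are on the left and the 3 control libraries on the right. Control F724 is blue for *Ttr*, *Clic6* and *Folr1* and for most midline and multiciliated genes, while *Otx2*, *Aqp1*, *Enpp2* and *Car12* are near the median there.

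The medians of these lists were lower without control F724, and also without KO F731. The log2 fold change was positive for 13 of 15 midline genes (median 0.49). Without control F724 this held for 11 of 15 (median 0.18), and without KO F731 for 12 of 15 (median 0.24). Of 8 multiciliated genes, all 8 were above 0 with a median of 0.78, and 7 of 8 with a median of 0.27 without control F724. Without KO F731 all 8 were above 0 with a median of 0.61. In edgeR, 0 genes of either list had an adjusted *P*-value under 0.05. *Tekt1*, a ciliary tektin, had 4.15, 3.58 and 6.20 CPM in KO and 3.22, 2.01 and 2.82 CPM in control, with all KO libraries above all controls and the smallest *P*-value of the multiciliated list (log2 fold change 0.77, adjusted *P*=0.863 in edgeR, unadjusted under 0.05). *Ccno* came next (1.04, adjusted *P*=0.863). *Rspo3*, a secreted enhancer of WNT signals, had the smallest of the midline list (log2 fold change 0.59, adjusted *P*=0.863 in edgeR), followed by *Zic1*, a zinc finger factor of the dorsal midline and meninges (-0.50, adjusted *P*=0.863). The part of control F724 in the values of *Ttr*, *Folr1* and *Clic6* was not tested beyond leaving it out.

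A further list of 36 genes that ChP epithelium is known to express was described in the same way. Of its 27 tested genes, 18 were above 0 with a median of 0.20, and 13 with a median of -0.0075 without KO F731. *Cp*, which encodes the ferroxidase ceruloplasmin, had 1.10, 0.990 and 2.07 CPM in KO and 0.465, 0.580 and 0.510 CPM in control. All KO libraries were above all controls, on 40, 42 and 30 counts in KO and 16, 26 and 15 in control (log2 fold change 1.36, SE 0.40, adjusted *P*=0.863 in edgeR, unadjusted under 0.05). *Slc4a10*, a sodium bicarbonate transporter of ChP and neurons, had 6.99, 6.48 and 4.96 CPM in KO and 9.49, 10.6 and 6.56 CPM in control (log2 fold change -0.52, adjusted *P*=0.863 in edgeR, unadjusted under 0.05), and the groups overlapped. KO F731 was the highest library for 21 of the 27 genes.

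Markers of other tissues, some of which share genes with the ChP or lie against it, were measured beside these values, and KO F731 was the highest library for the erythroid, liver and meningeal sums. The 10 erythroid markers summed to 1475, 1764 and 5331 CPM in KO and 1754 to 1867 CPM in control. *Hba-a1* and *Hba-a2*, which had almost the same counts in every library, gave 1574 and 1579 of the 5331 CPM. The 10 liver and yolk sac markers, tissues that make *Ttr* in quantity, summed to 7.70, 7.71 and 21.3 CPM in KO and 6.33 to 7.36 CPM in control. Most of each sum was *Trf*, at 5.69, 5.87 and 11.8 CPM in KO and 4.33, 5.98 and 5.40 CPM in control. The defining liver genes *Alb*, *Fgb* and *Ahsg* had 11, 15 and 9 counts in KO F731 and at most 1 count in any other library. Of the 4573 genes detected only there or nowhere, 4.59% reached the count of *Alb*, 1.97% that of *Fgb* and 7.70% that of *Ahsg*. *Apoa1* was 0.550, 0.424 and 1.38 CPM in KO and 0.406, 0.290 and 0.136 CPM in control, and *Trf* had the next smallest *P*-value of that list (log2 fold change 0.54, adjusted *P*=0.863 in edgeR). The 15 markers of meninges and fibroblasts summed to 58.8, 123 and 146 CPM in KO and 79.1, 113 and 99.2 CPM in control. Control F724 was the highest control for them and the lowest for *Ttr*. *Ogn* (log2 fold change 0.96) and *Slc22a6* (2.01) had the smallest *P*-values of that list (adjusted *P*=0.863 in edgeR for both). The 12 diencephalon markers summed to 113 to 132 CPM in KO and 98.8 to 183 CPM in control. They include *Nkx2-1*, which is also in the ventral telencephalon list. It had 65.0 CPM in control F725, the library with the sum of 183. The 12 eye and pigment cell markers, of which 4 were tested, summed to 60.7 to 77.6 CPM in KO and 51.2 to 91.9 CPM in control. Most of each sum was *Rlbp1*, at 44.0 to 54.5 CPM in KO and 43.5 to 71.4 CPM in control. *Tyr* was at 0 in all libraries other than KO F731, which had 4 counts, a number that 33.1% of those 4573 genes reached. The part of these tissues in the ChP values was not tested.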

How the data were processed

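RNA-seq libraries of E13.5 forebrain from 3 KO and 3 control embryos were used. ChIP-seq and ATAC-seq data were not used here. The authors deposited raw counts per gene, without normalization, over the UCSC annotation of iGenomes. HISAT2 had aligned the reads to mm10 after trimming by Trimmomatic. Which program counted them, and with which strand setting, the sources used here do not say. The study tested with DESeq2. Of the sample columns, 6 match the labels and the other 18 were not used. The animal numbers of the matching columns are not in the labels, so columns were unnumbered replicates of their group.

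Counts were filtered with filterByExpr (minimum count 10), scaled by TMM and tested with the edgeR 4.0.16 quasi-likelihood test (robust) in R 4.3.3, with Benjamini-Hochberg adjustment over all 15027 genes and a threshold of 0.05. The 3 KO libraries held 16638433 to 41140614 counts and the 3 control libraries 28569526 to 43066648. For groups of 3 the smallest two-sided *P*-value of an exact permutation test is 0.1. *P*-values set the difference between groups against the spread between these embryos, which edgeR estimates for each gene with help from the other genes. Counting limits, such as 3 counts for a 0, cover counting error only. Alternatives were DESeq2 1.42.0, limma-voom (limma 3.58.1), RLE and upper-quartile scaling, leaving out histone and structural RNA genes, no filter, at least 1 CPM in 3 libraries, and each library left out in edgeR and in DESeq2, which makes 20 fits. Gene positions and exonic lengths are from GENCODE vM21 (GRCm38). The test was tried on simulated counts.

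The 10 genes and all lists were chosen with earlier results of these data known. Named genes were the 10 members, *Prdm16*, and of each other list the genes with an unadjusted *P*-value under 0.05 or, with fewer than 2, the 2 with the smallest *P*-values, markers at or near 0 in lists that bear on a member, and the 8 genes most like the members over the libraries. Of the other named genes, *Lmx1a*, *Wnt3a*, *Mcidas* and *Gmnc* are said to be chosen after their values were seen. *Nkx2-1*, *Hba-a1* and *Tubb3* are also named outside this rule, for their part in a sum. The values of 1 gene named by this rule are not reported here.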

Additional observations from a re-analysis of the deposited data

How the results depend on the processing

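Of the 8 tested ChP genes, 0 passed an adjusted *P*-value of 0.05 under any of the 20 fits, and *Ttr*, *Folr1*, *Clic6*, *Aqp1* and *Enpp2* kept a log2 fold change above 0 in all of them. With each library left out, *Otx2* ranged from -0.64 to 0.16, *Car12* from -0.032 to 0.13 and *Sostdc1* from -0.35 to 0.34, and *Sostdc1* has no value under the filter at 1 CPM. *Prdm16* passed the adjusted threshold in DESeq2 (-2.62) and with no filter (-2.64), and ranged from -2.84 to -2.43 with each library left out. Over all genes, the adjusted threshold gave 0 genes in edgeR (289 at an unadjusted *P*-value under 0.05), 16 higher and 2 lower in DESeq2, 1 lower with no filter, and 0 to 23 higher and 0 to 11 lower with each library left out. An unadjusted *P*-value under 0.05 with a fold over 1.5 gave 127 higher and 27 lower in edgeR, 632 higher in DESeq2, 441 higher with no filter, 71 higher with the filter at 1 CPM, and 70 to 1193 higher and 14 to 124 lower with each library left out. Of the midline list, 0 to 1 genes passed the adjusted threshold with each library left out. The 1 gene was *Zic1*, lower in KO in DESeq2 without KO F728 (log2 fold change -0.91, adjusted *P*=0.0144). The median over all genes moved above 0 by over 0.1 in DESeq2 (0.15) and with no filter (0.13), which test 23322 and 23331 genes. The median of the ChP genes was 0.58 and 0.52 in these fits, with 8 of 10 above 0 in both, against 64.1% and 61.0% of all genes. The causes were not tested. No paired analysis was possible because the columns carry no replicate numbers that match the labels. Low counts limit *Kcne2*, *Kl* and *Sostdc1*, which had at most 21 counts in any library.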

Other observations

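Over all genes tested, 49.2% had a log2 fold change above 0. Of 12 genes of cortical cells 1 did (median -0.13). With 1 library left out in edgeR, 0 to 3 of the 12 did, with a median between -0.18 (without KO F728) and -0.07 (without KO F731). Their summed level was lower in all 3 KO libraries than in the controls, but *Tubb3* made up a large part of it. For each of the 12 genes the groups overlapped. *Eomes*, a factor of intermediate progenitors (-0.31), and *Neurod6*, a factor of postmitotic cortical neurons (-0.34), had the smallest *P*-values. Of 10 genes of the ventral telencephalon 0 were above 0 (median -0.24), led by *Gad1*, the GABA-synthesizing enzyme (-0.28), and *Lhx6*, a factor of cortical interneurons (-0.48). Of 8 genes of the oligodendrocyte lineage 3 were above 0 (median -0.11), with *Olig1* at -0.60. Control F725, the control with the highest *Ttr*, *Clic6* and *Folr1*, was also the highest of the 6 libraries for 9 of the 10 ventral telencephalon genes, which summed to 508 to 732 CPM in KO and to 576, 615 and 947 CPM in control F722, F724 and F725. Without control F725, 5 of these 10 genes were above 0 (median -0.024). With 1 other library left out in edgeR, their median was between -0.48 (without KO F728) and -0.11 (without KO F727). The oligodendrocyte median was between -0.22 (without KO F731) and 0.03 (without control F725), and the median of the endothelium and pericyte genes between -0.13 (without control F722) and 0.13 (without KO F727). Of 12 genes of endothelium and pericytes 7 were above 0 (median 0.04), and 1 of 12 without KO F731, with *Cldn5* at 0.69 and *Egfl7* at 0.43. Of 9 erythroid genes 9 were above 0 (median 0.54), and 1 without KO F731. *Hba-x* was at 1.02 and *Hba-a2* at 0.85. *Hba-a2* and its near-identical copy *Hba-a1* had almost the same counts in every library, with 12458 for each in KO F727. The same reads may stand behind both, so they cannot be taken as separate genes in these counts. Of 10 diencephalon genes 5 were above 0, with *Lhx9* at 0.25 and *Foxb1* at 0.90, and of 4 tested eye and pigment cell genes 2, with *Rlbp1* at -0.33 and *Tyrp1* at 0.45. The adjusted *P*-value was over 0.05 for every gene named in this paragraph in edgeR.

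The 8 genes whose levels were most like the mean z score of the 8 tested ChP genes over the 6 libraries, among 12882 genes with at least 1 CPM in every library, were *Sparc* (Pearson's r = 0.991), *Zfp947* (0.990), *Il18* (0.988), *Npas3* (0.983), *Sall2* (0.982), *Mmgt2* (0.970), *Capzb* (0.962) and *Itm2c* (0.962). The 6 points include KO F731, which was also the highest library of the score, and the genes were picked as the top of a ranking.

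The RefSeq promoter table (GRCm38.p6, 250 bases before to 50 after a start) held 9 promoters of 5 of the 10 genes, *Otx2*, *Kcne2*, *Aqp1*, *Kl* and *Car12*. The letters TAATCC, which OTX2 and related homeodomains bind, were in 1 of the 9 on either strand, an *Otx2* promoter, against 7.10% of 32851 promoters of the same length. A match is only a match of letters.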
